A study of Mus musculus with 29 samples.

Results

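Crude stromal vascular fraction (SVF) is the non-adipocyte cells released when white fat is digested with collagenase and dispase. After culture it held transcripts of genes typical of epithelia, and the cells that these came from were not tested. The 10 such genes described here are the keratins Krt7, Krt8, Krt18, Krt19, Krt5 and Krt14, the tight junction genes Cldn3 and Cldn4, and the adhesion genes Epcam and Cdh1. They were taken by symbol from the 56953 features of the count table, and all 10 were found. The genes were selected on their high values in female against male inguinal (iWAT) wells and in 1 iWAT well, P9. Those values are therefore given as descriptions without a test, and a contrast that takes in either iWAT group is not independent of the selection. The cells came from male and female C57BL6/J mice. The age and any pooling of animals are not in the labels. All cultures, with no untreated group, grew for 4 days in PM1 medium with 1 nM basic FGF (bFGF). The 29 Smart-seq3 bulk libraries comprised 10 iWAT male, 9 iWAT female, 4 perigonadal (pgWAT) male and 6 pgWAT female wells. The study calls such wells technical replicates of a few independent experiments, and the labels do not say which wells share one. The p-values below therefore measure the spread between wells, which may be technical.

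Keratins are the intermediate filament proteins of epithelia, and they assemble only as pairs of a type II and a type I chain. Krt8 (type II) with Krt18 (type I) is the classic pair of simple, single-layered epithelia, where Krt7 (type II) and Krt19 (type I) are also made, while Krt5 (type II) with Krt14 (type I) marks basal and myoepithelial layers. Claudins seal neighbouring epithelial cells at tight junctions, Epcam is a cell surface adhesion protein of epithelia, and Cdh1 encodes E-cadherin, the cadherin of their adherens junctions. In white fat the simple keratins are known from the mesothelium that covers visceral depots, and the inguinal pad of female mice surrounds the mammary gland, a bilayer of luminal and basal cells. Fibroblasts and adipose stem cells use the type III filament vimentin instead.

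Total counts per library ranged from 315316 to 1102234 and 12200 to 15394 genes were detected. In a single library a count of 0 allowed between 2.58 and 9.76 CPM (counts scaled to a common library total, with TMM factors; the limit is 3 counts and covers counting error only). Sex-linked transcripts (Xist and the Y-linked Ddx3y, Eif2s3y, Uty and Kdm5d) matched the label in all 19 iWAT wells but in only 5 of the 10 pgWAT wells. They contradicted it in the wells labelled pgWAT male C9 and J9 and pgWAT female B10 and G10, and met it in part in pgWAT female A10. The well in each title also gives a column, 7 to 10, and the groups were unevenly spread over these columns. Fibroblast genes were abundant in every group. Vim, the vimentin gene, averaged between 1573 and 2521 CPM, and the summed level of 6 fibroblast genes (Col1a1, Col3a1, Dcn, Lum, Pdgfra and Fn1) ranged from 6387 to 22688 CPM. The 10 epithelial genes together had at most 2680 CPM, in well P9, and 472 CPM in the next highest well.

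Krt8 (ENSMUSG00000049382.11) and Krt18 (ENSMUSG00000023043.8) were nearly absent from iWAT male wells and present in every iWAT female well. Krt8 had 1 count in the 10 male wells together, in well B9. In the 9 female wells its lowest, median and highest levels were 15.8, 67.9 and 740 CPM. The mean of 143 CPM (SD 228, n = 9) was set largely by the highest well, P9, and without it was 68.3 ± 47.9 CPM (SD, n = 8). Krt18 had between 0 and 3 counts in each male well, with a highest level of 6.23 CPM. Female wells held 12.4, 55.6 and 607 CPM of Krt18 at their lowest, median and highest, or 48.1 ± 20.2 CPM without P9 (SD, n = 8). Female and male wells did not overlap for either gene. With counts pooled over wells and set against the 1 count of Krt8 in male wells, female wells without P9 were 348-fold higher (95% counting interval 62.1 to 13777), and for Krt18 the ratio was 32.7 (16.4 to 76.5). These intervals cover counting error and not the spread between wells. Of the 31-base words in the longest coding transcript of Krt8, 32.3% also occur in other genes, nearly all in the pseudogene Krt8-ps, so some of its reads may have been divided between both genes. For Krt18 the share was 11.4%.

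The promoters of this pair are shown because the counts of both genes moved together from well to well. They were taken from RefSeq on GRCm38.p6 and run from 250 bases before to 50 bases after the annotated start of transcription. Capitals mark matches on either strand to 5 motifs: TATAAA (the TATA box), GGGCGG (the GC box), TGANTCA (the AP-1 motif), CAGGTG (an E-box) and AACCGGTT (a grainyhead motif). The Krt8 window is chr15:102004293-102004592 on the minus strand and the Krt18 window chr15:102027966-102028265 on the plus strand, so the genes are neighbours.
Krt8: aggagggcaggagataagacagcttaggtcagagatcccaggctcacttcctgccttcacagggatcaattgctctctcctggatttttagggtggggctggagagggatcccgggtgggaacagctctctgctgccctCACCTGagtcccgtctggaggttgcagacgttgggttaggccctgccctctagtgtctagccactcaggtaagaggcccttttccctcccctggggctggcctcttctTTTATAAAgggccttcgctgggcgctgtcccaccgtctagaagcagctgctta
Krt18: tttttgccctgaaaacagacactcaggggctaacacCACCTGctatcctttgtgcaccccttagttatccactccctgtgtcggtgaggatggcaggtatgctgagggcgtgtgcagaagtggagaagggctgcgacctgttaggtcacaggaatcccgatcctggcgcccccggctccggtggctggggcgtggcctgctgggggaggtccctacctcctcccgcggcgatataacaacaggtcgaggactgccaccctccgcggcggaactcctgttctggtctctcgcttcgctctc
Krt8 holds overlapping matches to TATAAA on both strands at the annotated start, a motif found in 13.6% of 32851 mouse promoters. Both windows hold a CAGGTG (read as CACCTG on the printed strand), at -111 in Krt8 and at -214 in Krt18. This E-box was present in 7 of the 8 members with a RefSeq promoter, every one but Krt14, beside 20.2% of all promoters. A match describes the letters only.

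Krt7 (ENSMUSG00000023039.18) followed the same pattern. Male iWAT wells held 3 counts in all, in wells G9 and P7, and reached at most 2.26 CPM. Female iWAT wells held 12.4, 34.7 and 244 CPM at their lowest, median and highest. Without P9 the mean was 33.7 ± 13.6 CPM (SD, n = 8), and with counts pooled over wells the female level was 61.3-fold the male one (counting interval 20.7 to 300). Krt19 did not follow it. All 10 iWAT male wells held Krt19, at 1.96, 17.7 and 54.1 CPM (lowest, median, highest), and so did all 9 female wells, at 11.2, 18.9 and 98.7 CPM. The groups overlapped, with a female mean without P9 of 19.0 ± 6.79 CPM (SD, n = 8) and a male mean of 19.9 ± 15.2 CPM (SD, n = 10). Within male wells Krt19 was 37.4 ± 14.6 CPM in column 9 (SD, n = 3) and 12.4 ± 7.63 CPM in column 7 (SD, n = 7), so the wells of column 9 were all above those of column 7.

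**Figure D1:**
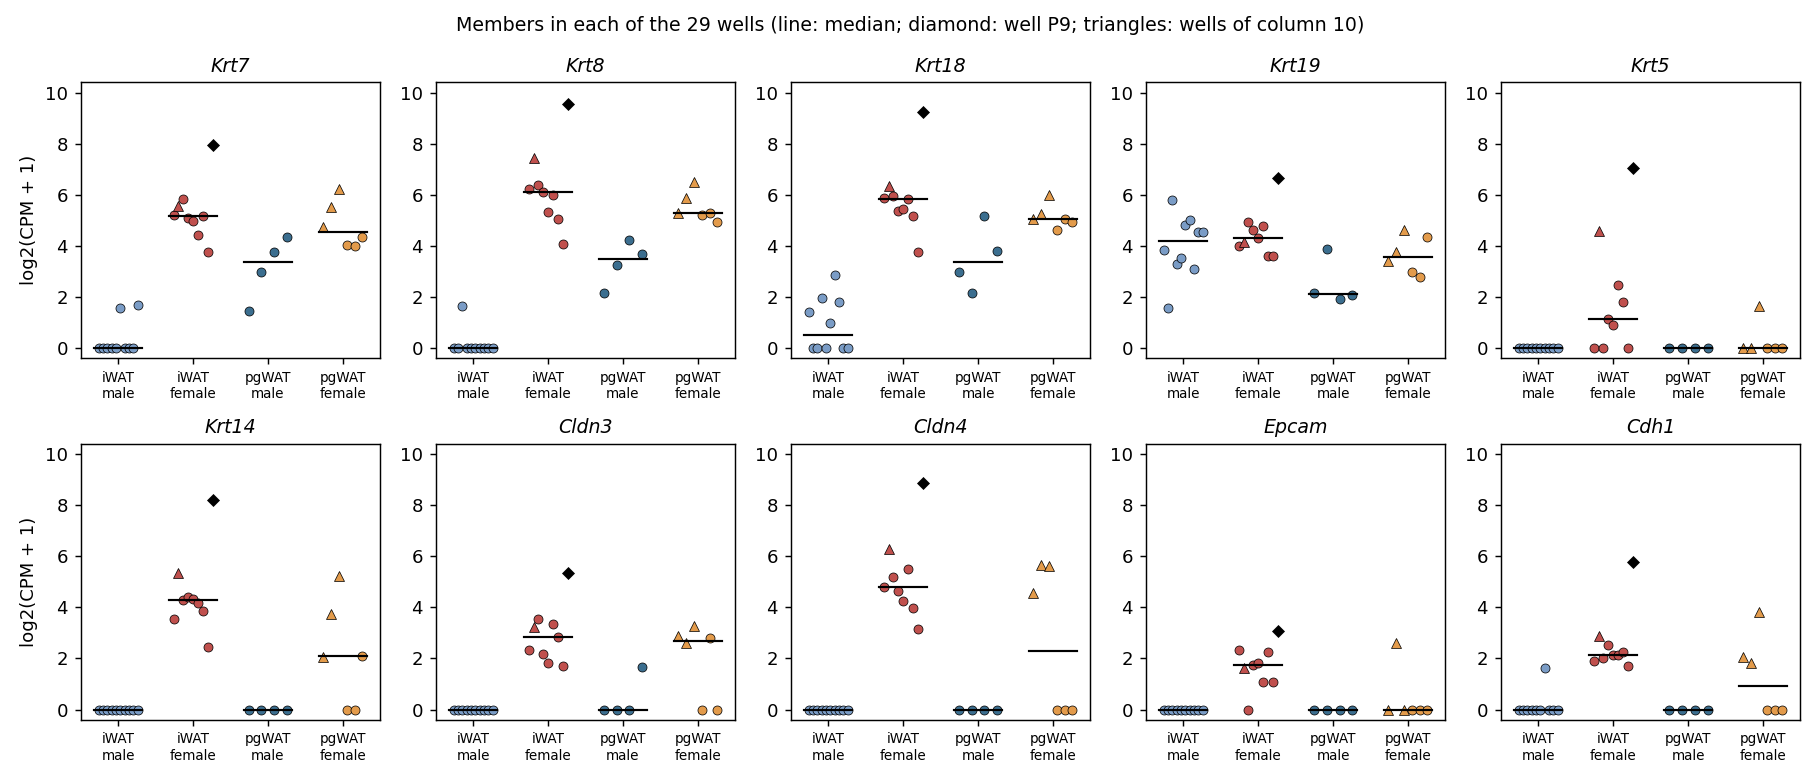
Level of each of the 10 genes in each of the 29 wells, as log2(CPM + 1) on the vertical axis, by group on the horizontal axis; lines are medians, the black diamond is iWAT female well P9 and triangles are wells of column 10. Krt19 is present in iWAT male wells at a median of 17.7 CPM while the other genes are at or near 0 there, and Cldn4 in pgWAT is seen only in the 3 wells of column 10.

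The basal pair was also seen in iWAT female but not in iWAT male wells. Krt14 (ENSMUSG00000045545.9) had 0 counts in all 10 male wells. It had 4.52, 18.5 and 291 CPM at the lowest, median and highest in female wells, and 18 ± 10.3 CPM without P9 (SD, n = 8), at least 32.3-fold higher than the limit of 3 counts over the male group. Krt5 (ENSMUSG00000061527.8) was rarer. It had 0 counts in male wells and was seen in 6 of the 9 female wells, with a median of 1.19 CPM. Its 2 highest wells were P9 at 131 CPM and F10 at 23.2 CPM, and the others had at most 4.54 CPM. Krt14 shares 29.2% and Krt5 12.8% of 31-base words with other genes. The largest parts are 18.2% of the words of Krt14 with Krt16 and 9.46% of those of Krt5 with Krt6a. Krt16 had no count in any well and Krt6a 4 counts, all in P9. The other genes that share words with Krt14 and Krt5 were not examined, so some reads may have been divided with them.

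Of the junction genes Cldn4 (ENSMUSG00000047501.4) was the most abundant. It had 0 counts in iWAT male wells and 7.92, 26.9 and 466 CPM at the lowest, median and highest in iWAT female wells. Without P9 the mean was 30.9 ± 21.5 CPM (SD, n = 8), at least 53.2-fold above the male limit of 3 counts over the group. Cldn3 had 0 counts in male wells and between 2.26 and 39.5 CPM in female wells, with a median of 6.19 CPM. Cdh1 had 1 count in male wells, in H9, and between 2.26 and 54.3 CPM in female wells, with a median of 3.44 CPM. Epcam was the scarcest, with 0 counts in male wells, 17 counts in all in female wells and a highest level of 7.40 CPM. The female well F7 had 0 counts of Epcam. In iWAT 7 of the 10 genes had every female well above every male well, and Krt19, Krt5 and Epcam did not. Of the 6 genes that passed the filter on low counts (Krt7, Krt8, Krt18, Krt19, Krt14 and Cldn4), 5 did so, against 0.328% of all tested genes. This share was fixed by how the genes were selected, and nothing is read from it. The Cldn4 promoter, chr5:134946885-134947184 on the minus strand (GRCm38.p6, RefSeq), is shown because this gene separated the wells most cleanly into those with and those without counts.
Cldn4: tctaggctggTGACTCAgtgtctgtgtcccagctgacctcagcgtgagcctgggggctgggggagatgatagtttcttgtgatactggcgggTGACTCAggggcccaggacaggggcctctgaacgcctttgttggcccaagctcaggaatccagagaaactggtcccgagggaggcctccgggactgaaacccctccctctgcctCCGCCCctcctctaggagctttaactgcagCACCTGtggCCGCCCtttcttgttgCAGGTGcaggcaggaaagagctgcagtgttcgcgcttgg
It holds 2 matches to TGANTCA, the AP-1 motif, at -240 and -158, beside 7.81% of promoters with any. It also holds the E-box on both strands, at -14 and 11, and 2 matches to GGGCGG, which is in 35.7% of promoters. AACCGGTT, in 0.146% of promoters, matched none of the 8 windows. Cdh1 and Krt19 are named only.

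Well P9 held the highest iWAT female level of every one of the 10 genes, although its 3 counts of Epcam were also reached in E7, H7 and I8. Their sum was 2680 CPM in P9 and 234 ± 118 CPM in the other iWAT female wells (SD, n = 8), a ratio of 11.5. P9 supplied 44.0% of the 2470 counts that these genes had in iWAT female wells. The excess was uneven. Krt5 was 32.4 times its mean in the other 8 wells, Krt14 16.2 times, Cldn4 15.1 times and Cdh1 14.6 times. Krt18 was 12.6 times and Krt8 10.8 times that mean, while Krt7 was 7.26 times, Cldn3 6.72 times, Krt19 5.18 times and Epcam 3.46 times. The basal pair was thus raised more than the simple keratins Krt7 and Krt19. P9 was the shallowest of the 9 iWAT female libraries, with 414749 counts and 12319 detected genes. Its fibroblast genes summed to 7965 CPM, within the iWAT female range of 7829 to 12199 CPM, of which Fn1 made up 3884 CPM. For 3 of the 6 fibroblast genes P9 was below all 8 other wells, with Col3a1 at 1318 against at least 1632 CPM, Dcn at 548 against at least 700 CPM and Lum at 212 against at least 316 CPM. The share of all genes for which P9 was the lowest well was not counted. The part of cell makeup in the P9 values was not tested. Macrophage genes summed to 609 CPM there, within the female range of 584 to 1075 CPM.

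Ranked by the ratio of P9 to the mean of the other iWAT female wells among 1532 genes with at least 50 counts in P9, 6 of the first 10 genes were Krt5, Krt14, Cldn4, Krt18, Krt8 and Krt7. The other 4 were Krt17, Clu, Sfn and Actg2. Krt17, a keratin of basal layers and skin appendages, had 605 CPM in P9 and at most 67.5 CPM in the other wells. Sfn, an epithelial 14-3-3 protein, had 205 against at most 25.3 CPM, and Clu, a secreted chaperone, 765 against at most 61.2 CPM. The contractile genes Actg2 and Acta2, which smooth muscle and myoepithelium share, had 136 and 2421 CPM in P9 against highest values of 46.4 and 1445 CPM elsewhere in iWAT female.

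**Figure D2:**
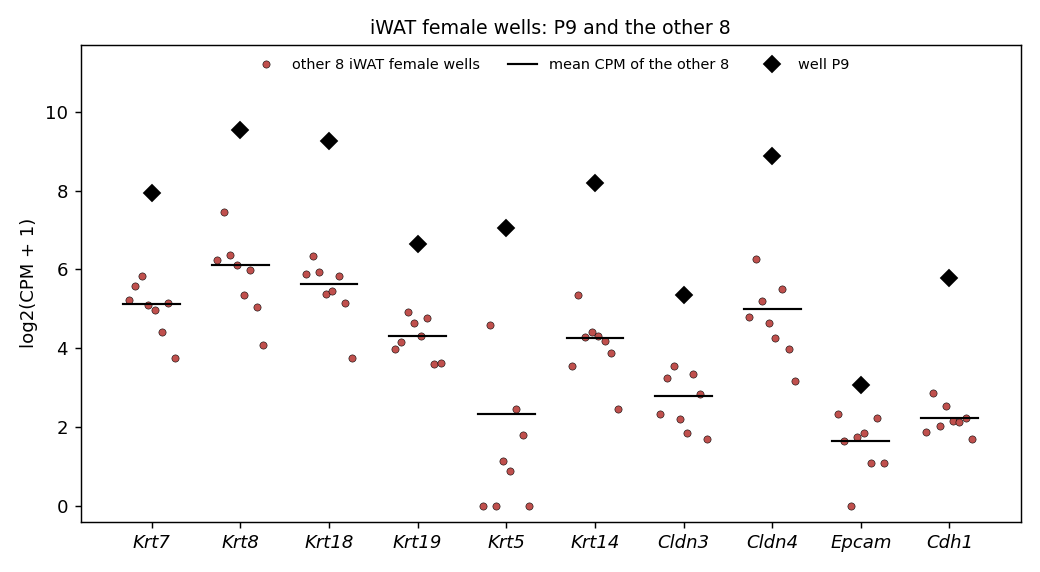
Levels in the 9 iWAT female wells as log2(CPM + 1) on the vertical axis for each gene on the horizontal axis; points are the other 8 wells, lines their mean CPM and diamonds well P9. P9 is the highest well for every gene, from 7.40 CPM of Epcam to 740 CPM of Krt8.

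The levels of Krt7, Krt8, Krt18, Krt14 and Cldn4 moved together across wells, and those of Krt19 less so. Correlations were formed for the 6 members that passed the filter. Over log2 CPM of all 29 wells, Krt8 correlated most with Krt7 and Krt18 (Pearson r = 0.97 for both), and both stayed at 0.96 over the 28 wells without P9. Krt19 had r = 0.29 with Krt7, 0.31 with Krt8 and 0.28 with Krt18 over the 29 wells. Within the 8 iWAT female wells without P9, r was 0.92 between Krt8 and Krt18, 0.95 between Krt8 and Cldn4 and 0.85 between Krt8 and Krt14. With Krt7, r was 0.75 for Krt8 and 0.37 for Krt19. In the 10 pgWAT wells r was 0.89 between Krt8 and Krt18 and 0.31 between Krt18 and Krt19. These values share library and depth and describe these wells only. The genes outside the members that were most like Krt8 over 29 wells were Krt17 (r = 0.81), Clu (0.81), Ptgis (0.80) and Sfn (0.77). For Krt18 they were Krt17 (0.80), Ptgis (0.79), Sfn (0.77) and Cnn2 (0.76). Without P9 the prostacyclin synthase gene Ptgis came first for both, at 0.83. Over the 18 iWAT wells without P9 Tnc, which encodes tenascin C, led the genes outside the members with 0.95 for Krt8 and 0.93 for Krt18. Xist had 0.91 with Krt8 over the same wells. Krt8 was nearly absent from male and present in all female iWAT wells, so these values take in the split between the sexes that selected the genes. The values over 29 and 28 wells take it in too.

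Between Krt8 and Krt18 the balance was steadier than the level of either. Among the 16 wells with at least 10 counts of both, the ratio of Krt8 to Krt18 counts per transcript length lay between 0.382 in pgWAT male I7 and 1.58 in iWAT female F10. It was 0.895 in P9, where both were highest. The count ratio averaged 1.33 ± 0.388 in iWAT female (SD, n = 9) and 1.37 ± 0.172 in pgWAT female wells (SD, n = 5). On CPM per kilobase of the longest coding transcript, the order in iWAT female wells without P9 was Krt8 at 34.9 ± 24.5, Krt18 at 33.4 ± 14.1, Cldn4 at 17.0 ± 11.9, Krt19 at 12.1 ± 4.31, Krt14 at 10.6 ± 6.08 and Krt7 at 8.22 ± 3.32 (SD, n = 8). Apart from the step from Krt18 to Cldn4, each mean differed from the next in the order by less than the larger SD of the pair. In iWAT male wells Krt19 led at 12.6 ± 9.67 and Krt18 followed at 0.996 ± 1.41 (SD, n = 10). In pgWAT female wells Krt18 at 25.3 ± 9.62 and Krt8 at 24.6 ± 11.3 led Cldn4 at 11 ± 13.2 (SD, n = 6).

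**Figure D3:**
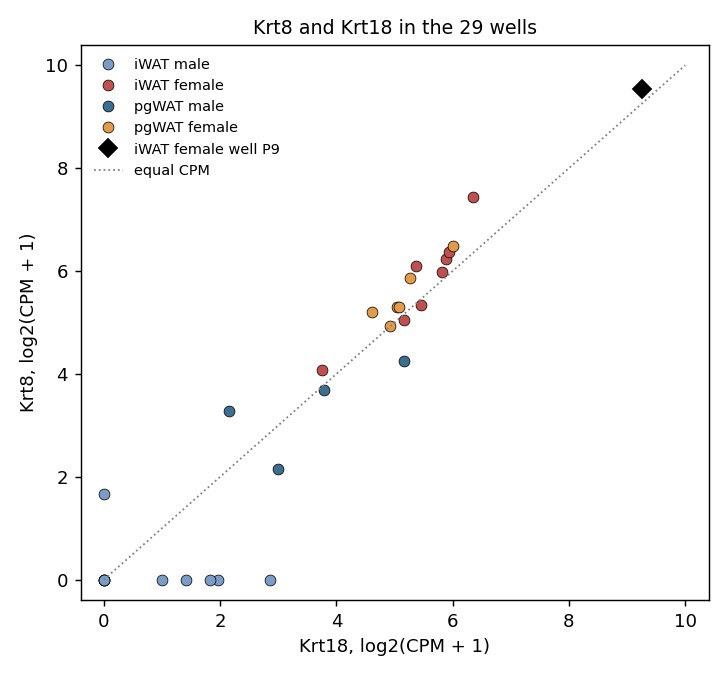
Krt8 against Krt18 in each of the 29 wells, both axes as log2(CPM + 1), with colors for the 4 groups and a diamond for P9; the dotted line marks equal CPM. Wells of 3 groups lie along the line, and the iWAT male wells lie near the origin, with at most 2.16 CPM of Krt8.

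Whether the depots differed was asked next. In pgWAT the 4 simple keratins were found in all 10 wells. Krt8 had 18 CPM in I7, 3.47 in B8, 8.64 in C9 and 11.8 in J9, the 4 wells labelled male. In the 6 wells labelled female it had 29.3, 38.5 and 89.0 CPM at the lowest, median and highest. Every pgWAT well was above every iWAT male well for Krt8, as for 2.88% of all tested genes. Krt18 had 34.7 CPM in I7, 6.94 in B8, 3.46 in C9 and 12.8 in J9, and between 23.5 and 62.9 CPM in the wells labelled female. Krt7 had 12.5, 1.74, 6.91 and 19.3 CPM in I7, B8, C9 and J9, and between 14.8 and 73.8 CPM in the wells labelled female. By group mean the order for Krt8 was iWAT female, pgWAT female, pgWAT male and iWAT male. The wells of the first 2 groups overlapped. The lowest well labelled pgWAT female was at 29.3 CPM and the highest labelled pgWAT male at 18 CPM. Of these 10 wells, 4 contradict their label and 1 meets it in part. Between pgWAT male and iWAT male the gap was only 2 counts in B8 against 1 count in B9.

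Among wells labelled male, Krt7, Krt8 and Krt18 rose in pgWAT over iWAT by edgeR's quasi-likelihood test. The log2 fold change of Krt7 was 3.96 (SE 1.07, FDR = 0.00724), that of Krt8 4.90 (SE 1.63, FDR = 0.0297) and that of Krt18 3.26 (SE 1.15, FDR = 0.0405). These are 3 of the 6 members tested, beside 11.8% of all tested genes called higher in this contrast and 8.53% called lower. The low iWAT male values helped to select the genes, so the contrast is not independent of that choice. Without P9, which is not among these wells, the log2 fold changes were 3.96, 4.91 and 3.26 (FDR = 2.24e-04, 2.36e-04 and 3.04e-04). With well column as a factor they were 3.78, 4.74 and 3.35 (FDR = 1.53e-04, 0.00107 and 0.00765). The call for all 3 genes was lost without the libraries whose sex-linked transcripts did not match, which left 2 wells labelled pgWAT male, at log2 fold changes of 3.43 for Krt7, 4.96 for Krt8 and 3.77 for Krt18 (FDR = 0.130, 0.170 and 0.0934), and with limma-voom (FDR = 0.0885, 0.186 and 0.176). The Krt18 call was also lost without the pgWAT wells of column 10 (log2 fold change 3.27, FDR = 0.0511). Single wells mattered too. Without pgWAT well I7 the FDR was 0.0842 for Krt8 and 0.228 for Krt18, and without pgWAT well J9 it was 0.0732 for Krt7, 0.0765 for Krt8 and 0.0779 for Krt18. The Krt8 call also needed iWAT well B9 (FDR = 0.0577 without it), and the Krt18 call was lost without any 1 of iWAT wells A7, B7, B9, D7, G9, O7 and P7 (FDR at most 0.0625). Within column 9, where both pgWAT wells contradicted their label, the log2 fold change was 3.57 for Krt7 (SE 0.776, FDR = 0.00307), 3.91 for Krt8 (SE 0.811, FDR = 0.00213) and 2.03 for Krt18 (SE 0.781, FDR = 0.0712), beside 12.0% of genes higher and 11.3% lower.

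Among wells labelled female, the direction was the opposite for Krt8. The genes were selected on their high iWAT female values, P9 included, so lower values in pgWAT are favoured by that choice and the FDRs of this contrast describe the fit only. Its log2 fold change in pgWAT over iWAT was -1.46 (SE 0.550, FDR = 0.0453), the only call among the 6 members tested, beside 12.6% of genes called lower and 14.2% called higher. Without P9 it was -0.45 (FDR = 0.364), with limma-voom -0.51 (FDR = 0.478), where Cldn4 was the member called instead (FDR = 0.0457). In the fit that took account of well column it was -0.66 (FDR = 0.244). It was -1.55 with DESeq2 (FDR = 0.0836), -1.90 without the pgWAT wells of column 10 (FDR = 0.0838) and -1.88 without the mismatched libraries (FDR = 0.0867). The call was also lost, at log2 fold changes between -1.52 and -1.37 and an FDR of at most 0.0919, without any 1 of pgWAT wells A10, B10, K8, L8 and O8 and iWAT wells F10, B9 and P7. The log2 fold change was -1.49 for Krt18 (SE 0.581, FDR = 0.0545, under the threshold without any 1 of 9 wells), -0.73 for Krt7 (SE 0.484, FDR = 0.285), -2.27 for Krt14 (SE 0.965, FDR = 0.0886) and -1.94 for Cldn4 (SE 0.935, FDR = 0.135). Without P9 the values for Krt18 and Krt7 were -0.38 and -0.05, and none of the 6 members was called. The difference between the male and the female contrast was not tested. With both labelled sexes weighted equally, Krt7 rose in pgWAT with a log2 fold change of 1.62 (SE 0.597, FDR = 0.0308). It was the 1 member called higher, beside 20.1% of genes called higher, and the call was lost without pgWAT well G10 (FDR = 0.0636) or J9 (FDR = 0.123). Krt8 at 1.72 (SE 0.895, FDR = 0.132) and Krt18 at 0.89 (SE 0.649, FDR = 0.299) did not pass. Without P9 all 3 were called, Krt7 at 1.95, Krt8 at 2.23 and Krt18 at 1.44 (FDR = 4.14e-04, 7.70e-04 and 0.00219). The equal weighting averages contrasts of opposite sign, and its iWAT female side holds the wells that selected the genes.

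Krt19 was the only member called lower in pgWAT with both labelled sexes, beside 17.9% of tested genes called lower. The wells labelled pgWAT male had 2.78 CPM in I7, 3.47 in B8, 13.8 in C9 and 3.21 in J9. The wells labelled pgWAT female had 5.93, 11 and 23.9 CPM at the lowest, median and highest. The depots overlapped, with iWAT wells between 1.96 and 98.7 CPM. The log2 fold change was -1.43 (SE 0.424, FDR = 0.00787). It was -1.21 without P9 (FDR = 0.00939), and the FDR stayed between 0.00313 and 0.0240 when each of the 29 libraries was left out in turn. Within the labelled sexes it was -1.80 for male (FDR = 0.0519) and -1.06 for female wells (FDR = 0.141). Within column 9 the male contrast was -2.24 (SE 0.515, FDR = 0.00452), and within column 8 the female contrast was -0.83 (SE 0.561, FDR = 0.381).

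**Figure D4:**
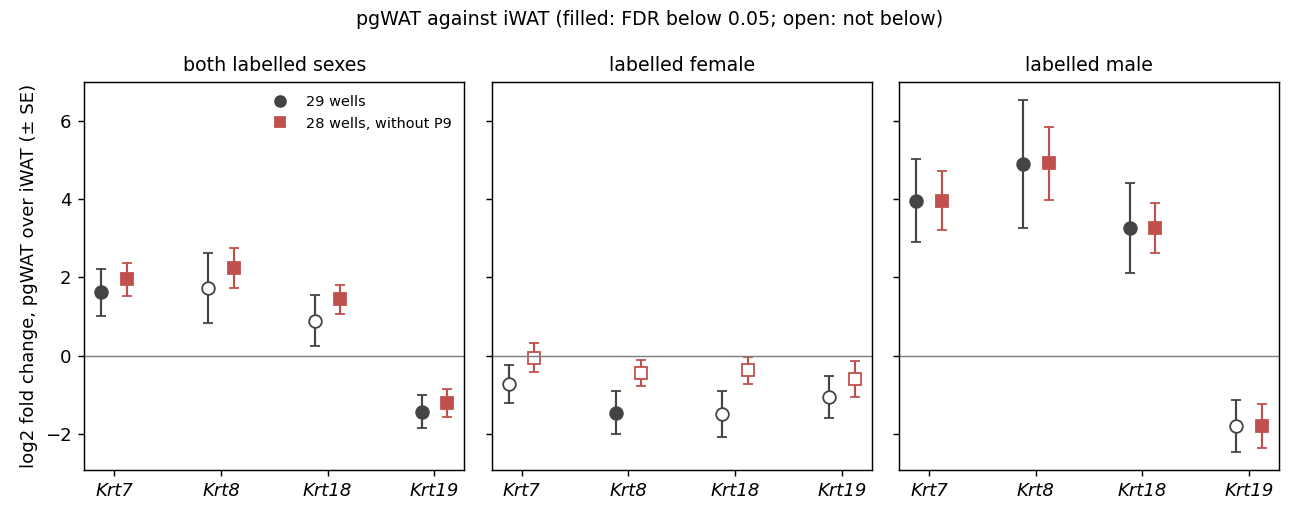
Log2 fold change of pgWAT over iWAT on the vertical axis for the 4 simple keratins, with both labelled sexes, labelled female and labelled male wells in separate panels; circles are 29 wells, squares 28 wells without P9, bars the SE, and filled symbols an FDR below 0.05. Krt7, Krt8 and Krt18 lie above 0 in male wells (3.96, 4.90 and 3.26) and below 0 in female wells, and Krt19 lies below 0 in all panels.

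Most tested markers of mesothelium were higher in pgWAT than in iWAT, and within pgWAT female their means differed between columns in both directions. Of 16 mesothelial genes other than keratins, 8 passed the filter. With both labelled sexes 6 of them were called higher and 1, Efemp1, lower in pgWAT, beside 20.1% and 17.9% of all tested genes. Upk3b, a uroplakin of mesothelium, averaged 31.3 CPM in wells labelled pgWAT male and 46.8 CPM in wells labelled pgWAT female, against 0 in iWAT male and 0.0955 CPM in iWAT female wells. Wt1, a transcription factor of mesothelium, averaged 13.6 and 28.1 CPM in pgWAT and 0.518 and 0.354 CPM in iWAT male and female wells. The others called higher were Upk1b, Aldh1a2, Hp and C3. Within pgWAT female, column 10 had more Krt7, Krt8 and Krt18 than column 8. Its means were lower for Upk3b (37.8 against 55.7 CPM), Lrrn4 (5.39 against 26.6 CPM), Msln (9.08 against 16.7 CPM), Wt1 (25.4 against 30.8 CPM) and Upk1b. They were higher for Aldh1a2 (134 against 55.6 CPM), Nkain4 (33.6 against 5.07 CPM), Hp (680 against 229 CPM) and C3 (570 against 181 CPM). Cpe (66.6 against 33.3 CPM) and Efemp1 (371 against 108 CPM) were higher in column 10 too, as were the low means of Rspo1, Bnc1 and Gpm6a. The summed level of the list ranged from 458 to 1384 CPM in pgWAT male, 728 to 2624 CPM in pgWAT female, 532 to 1082 CPM in iWAT male and 363 to 1014 CPM in iWAT female wells. In iWAT most of that sum was Efemp1, with means of 704 CPM in male and 586 CPM in female wells. Upk3b, Upk1b and Wt1 had 0 counts in P9, where the simple keratins were highest. Their means over iWAT female wells were also near 0, at 0.0955, 0.469 and 0.354 CPM, so this was not particular to P9. Aldh1a2, Hp and C3 had 3 to 4 counts each in P9, at 7.40, 9.87 and 7.40 CPM. Of these, Aldh1a2 was above the other 8 iWAT female wells (at most 4.63 CPM), and Hp and C3 were within their range. The part of mesothelium in the pgWAT keratin values was not tested. In bulk cultures fewer cells of a type and less RNA per cell cannot be told apart.

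Cldn4 and Krt14 split the pgWAT wells by column. Cldn4 was at 22.4 CPM in A10, 50 in B10 and 47.7 in G10, and had 0 counts in the other 7 pgWAT wells. Krt14 was at 3.20 CPM in A10, 12.5 in B10 and 36.9 in G10, and outside column 10 it had 1 count, in O8. Cdh1 was also seen in A10, B10 and G10 only, at 3.20, 2.50 and 13.0 CPM, and Epcam in B10 only, at 5.00 CPM. Krt5 had 1 count in pgWAT, in G10. Cldn3 was spread wider, at 6.40, 5.00 and 8.68 CPM in these 3 wells, 5.93 CPM in L8 and 2.14 CPM in J9. The 3 wells of column 10 are the ones labelled pgWAT female whose sex-linked transcripts contradicted or only partly met that label. Within pgWAT female, column and label mismatch therefore cannot be told apart. Wells C9 and J9, labelled pgWAT male, also contradict their label and had 0 counts of Cldn4, Krt14 and Cdh1. The single iWAT female well of column 10, F10, had 75.9 CPM of Cldn4 and the second highest sum of the 10 genes after P9.

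Column 10 of pgWAT female also had higher simple keratins than column 8, but by less. Between the columns the ratio of summed levels was 3.23 for Krt7 (counting interval 2.02 to 5.29), 1.81 for Krt8 (1.28 to 2.58), 1.63 for Krt18 (1.09 to 2.46) and 1.84 for Krt19 (0.886 to 3.89). For Krt14 it was 33.4 (5.43 to 1377), and for Cldn4 at least 23.7-fold, against the limit of 3 counts over column 8. These ratios were formed after the values were seen and carry no test. Within column 8 the depots could be set against each other with 3 wells each. There Cldn4 had 44.2, 14.9 and 7.92 CPM in iWAT wells H8, I8 and J8 and 0 counts in pgWAT wells K8, L8 and O8, at least 12.8-fold lower in pgWAT. Krt14 had 17.0, 13.6 and 4.52 CPM in the iWAT wells and 0, 0 and 3.25 CPM in the pgWAT wells, a ratio of 19.9 (counting interval 3.31 to 811). Of the 6 members that passed the filter, Cldn4 and Krt14 had every iWAT well above every pgWAT well of column 8, beside 15.1% of tested genes. So did Epcam and Cdh1, which did not pass, Epcam with 1, 3 and 1 counts against 0. The test called Cldn4 and Krt14 lower within the column, beside 5.74% of genes. These iWAT wells belong to the group that selected the genes, so the direction was favoured by the choice and nothing is read from the counts. Krt8 did not differ there beyond the spread between wells, with a log2 fold change of -0.06 (SE 0.365, FDR = 0.938), nor did Krt18 at -0.28 (SE 0.390, FDR = 0.703) or Krt7 at -0.49 (SE 0.416, FDR = 0.504). The fitted fold changes of Krt14 and Cldn4 over all wells are not given for both labelled sexes or for labelled male wells, because whole groups were at 0 counts.

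**Figure D5:**
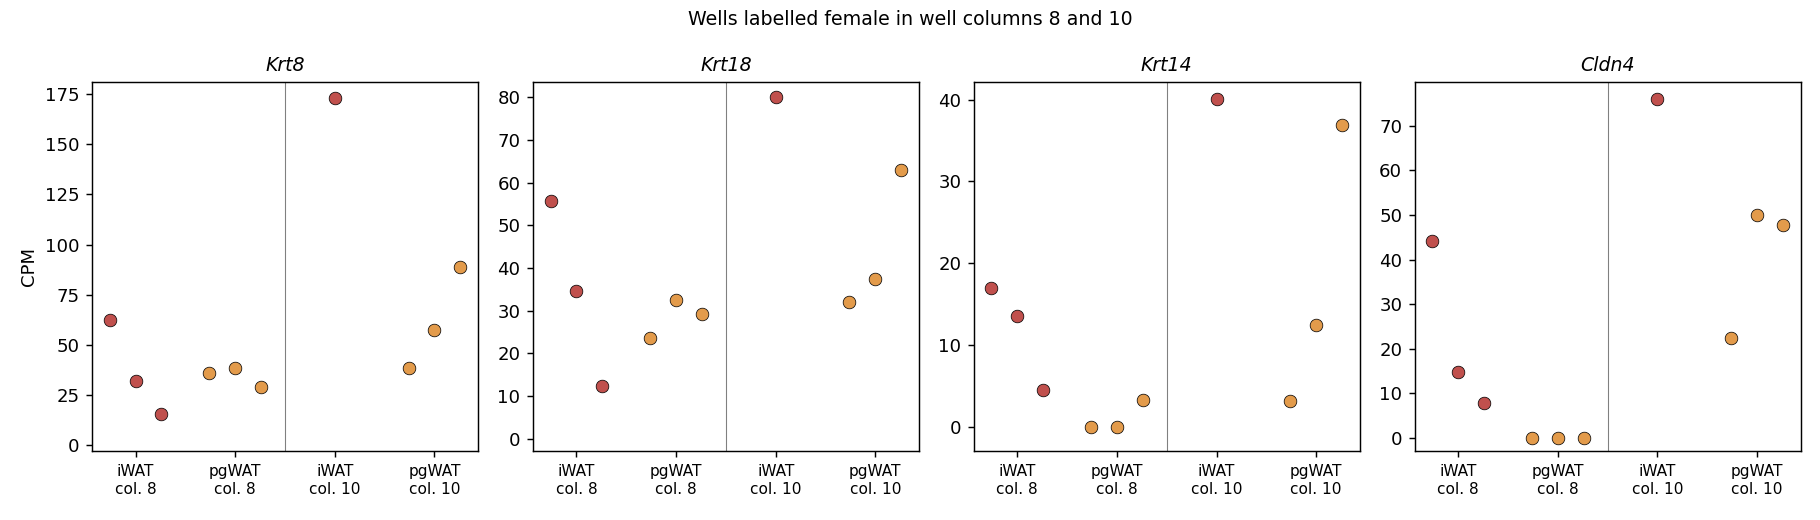
Levels of Krt8, Krt18, Krt14 and Cldn4 in CPM on the vertical axis, each panel on its own scale, in the wells labelled female of columns 8 and 10 on the horizontal axis; each point is a well. Cldn4 is at 0 in the 3 pgWAT wells of column 8 and between 22.4 and 50 CPM in those of column 10, while Krt8 and Krt18 are present in all of them.

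Within pgWAT the labelled sexes were compared with the limit that 4 of the 10 wells contradict their label and 1 meets it in part. No member was called by edgeR, beside 0.0113% of tested genes (1 gene). At an unadjusted p under 0.05 there were 3 members (Krt7, Krt8 and Cldn4) and 739 genes. The log2 fold change of male over female wells was -2.13 for Krt8 (SE 0.839, FDR = 0.485), -1.52 for Krt7 (SE 0.682, FDR = 0.544), -1.25 for Krt18 (SE 0.817, FDR = 0.725) and -1.14 for Krt19 (SE 0.768, FDR = 0.733). With well column as a factor Krt7 at -2.95 (FDR = 0.00568) and Krt8 at -3.77 (FDR = 0.00313) were called lower in the wells labelled male. So were Krt14 and Cldn4 (FDR = 0.0177 and 0.0169), whose wells labelled male held no count, beside 0.136% of tested genes. The column terms of that fit also rest on the iWAT wells. P9 is the only iWAT female well of column 9, which holds 2 of the 4 wells labelled pgWAT male. The values of P9, on which the genes were selected, therefore enter these calls. Without the mismatched libraries, which left 2 wells labelled male and 3 labelled female, none was called, with Krt8 at -1.65 (FDR = 0.601), Krt7 at -1.10 (FDR = 0.692) and Krt18 at -0.41 (FDR = 0.917).

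Few other epithelial genes had enough counts to be tested. Of 15 other keratins, 1 passed the filter, Krt17, with 0 counts in iWAT male and pgWAT male wells. It averaged 86.1 CPM in iWAT female and 7.73 CPM in pgWAT female wells, where column 10 had a mean of 15.5 CPM and column 8 of 0. Krt17 was called lower in pgWAT among wells labelled female (log2 fold change -3.37, FDR = 0.0488). Without P9 the iWAT female mean was 21.3 CPM and the log2 fold change -1.41 (FDR = 0.232), and Krt17 was not called by DESeq2 or limma-voom either (FDR = 0.518 and 0.202). Of 4 other keratins no well had a count. Of 22 other tight junction genes 6 passed and 1, Cldn15, rose in pgWAT with both labelled sexes (log2 fold change 0.87, FDR = 3.51e-04). Cldn12, Tjp1, Cgnl1, F11r and Pard3 did not pass the test. Cldn7 had 18 counts in all wells, 9 of them in P9. The summed level of this list was 257 to 330 CPM in pgWAT female wells, above every well of iWAT male (162 to 247 CPM), iWAT female (200 to 252 CPM) and pgWAT male (214 to 252 CPM). Of 22 genes of desmosomes and adherens junctions 11 passed. The calls of both lists stand beside 20.1% of all tested genes called higher in pgWAT and 17.9% called lower. Jup (plakoglobin) and Nectin2 rose in pgWAT, with log2 fold changes of 1.88 and 2.19 (FDR = 1.22e-10 and 1.22e-15), and Pkp4 and Plec fell by 0.82 and 0.32 on the log2 scale (FDR = 0.0171 and 0.00462). Their catenin partners Ctnna1, Ctnnb1 and Ctnnd1 were present in every group, at mean levels of 234 to 283, 369 to 529 and 64.5 to 76.5 CPM. The desmosomal genes Dsp and Dsg2 had 4 and 3 counts in all wells together.

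Of 23 epithelial regulators and surface genes, 1 passed the filter. This was Sfn, at 33.5 CPM in iWAT female, 15 in pgWAT female, 2.35 in pgWAT male and 1.38 in iWAT male wells, and it was not called between depots (FDR = 0.892). Without P9 the iWAT female mean of Sfn was 12.1 CPM, below that of pgWAT female. The pgWAT female mean came almost wholly from column 10, at 29.5 CPM against 0.461 CPM in column 8. The list summed to 338 CPM in P9 and at most 48.5 CPM in the other iWAT female wells. The transcription factors Grhl2, Elf3, Ehf and Trp63 had at most 4 counts each over the 29 wells. Of 20 mammary epithelial genes 2 passed, Aldh1a3, which was not called (FDR = 0.740), and Folr1, which rose in pgWAT (log2 fold change 4.14, FDR = 1.05e-11). Their sum was 185 CPM in P9, at most 67.5 CPM in the other iWAT female wells, 17.8 to 59.3 CPM in iWAT male wells and 55.5 to 119 CPM in pgWAT wells. Of the milk protein genes, Csn2 and Wap had no count in any well, Lalba had 1, and Csn3 had 22, of which 5 were in P9. Wfdc18 had 32 counts in all wells, 17 of them in P9, and none in iWAT male wells. Elf5, a regulator of luminal cells, had 4 counts in all wells and none in P9. The part of mammary epithelium in the iWAT female values was not tested. Of 8 genes of genital tract epithelium none passed the filter, and their sum was at most 10.2 CPM in any well.

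Genes of the mesenchymal program were measured beside the epithelial ones. Of 11 such genes (vimentin, desmin, nestin and transcription factors known to repress epithelial genes) 10 passed. In pgWAT with both labelled sexes 6 were called lower and 2 higher, beside 17.9% and 20.1% of all tested genes. Snai1, Snai2, Zeb1 and Twist2, repressors of epithelial genes, were among those lower, with Snai2 at a log2 fold change of -1.15 (FDR = 3.43e-04) and Zeb1 at -0.84 (FDR = 0.00218). Zeb2 was higher, at 0.74 (FDR = 9.78e-04), and so was Des, the muscle filament desmin, at 3.06 (FDR = 2.89e-11). The median log2 fold change of the 10 was -0.56, and that of all 8853 genes tested was 0.01. P9 was below all 8 other iWAT female wells for 5 of the 11 genes. The share of all genes for which P9 was lowest was not counted, so nothing is read from that number. Snai2 was at 49.4 against at least 63.3 CPM, and Vim was nearly level, at 2255 against at least 2277 CPM. Snai1 (14.8 against at least 31 CPM), Twist1 (2.47 against at least 4.04 CPM) and Twist2 (7.40 against at least 7.94 CPM) rest on 6, 1 and 3 counts in P9. For Nes, the nestin gene, P9 was above the other 8, at 76.5 against at most 53.6 CPM, and for Zeb1 it was within their range at 39.5 CPM. Endothelial genes summed to 26.2 to 104 CPM over all wells, and of their 3 tested genes 1, Kdr, rose in pgWAT. Macrophage genes reached 7625 CPM in pgWAT male wells, and 2 of the 4 tested, Cd68 and Lyz2, rose in pgWAT. Of the 6 fibroblast genes 5 rose and Lum did not pass (FDR = 0.103). The endothelial, macrophage and fibroblast counts stand beside 20.1% of all tested genes called higher in pgWAT, and these lists are short.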

How the data were processed

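RNA of 29 SVF culture wells was measured as Smart-seq3 bulk libraries. The authors trimmed reads with NGmerge, quantified them with Salmon 1.9.0 against a Gencode transcriptome on GRCm39, used STAR 2.7.10a, FastQC 0.11.9 and MultiQC 1.12 for quality control, added up the transcripts of each gene and dropped libraries in which few genes were detected (tool versions from the submitters' processing notes). The deposited values are expected counts per gene, not normalized, and 86.3% of nonzero values were whole within 0.001. They were rounded to whole counts here. Estimated counts divide reads among sequences that transcripts share, so genes with a near copy are less certain. Reads with and without molecular identifiers are together, so intervals cover counting error only.

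Of 56953 features 91.4% had a symbol by Ensembl ID. The files give no coordinates. A GRCm38 annotation served for symbols, transcript lengths and shared sequence, and RefSeq promoters (GRCm38.p6) were matched for 8 of the 10 members. The strand of counting is not given in the sources used here.

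Depth per library was 315316 to 1102234 counts, and TMM factors were 0.949 to 1.056. Groups followed the labelled depot and sex. No pair of libraries within a group agreed within sampling noise (lowest chi-square per gene 1.57). Tests used R 4.3.3 and edgeR 4.0.16 (TMM, filterByExpr, the two-sided quasi-likelihood test) on all libraries at once, with 1 mean per group, with Benjamini-Hochberg FDR below 0.05 over the 8853 genes kept. SEs were derived from the F statistic. DESeq2 1.42.0, limma-voom (limma 3.58.1), other scalings, no filter, well column as a factor and leaving out libraries were alternatives. The contrasts within labelled sexes and the fit without the pgWAT wells of column 10 were added after the data were seen. The fit was tested on simulated data.

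Named genes are the 10 members, the 8 genes most correlated with Krt8 and with Krt18 (log2 CPM, prior count 2), the 15 with the largest ratio of P9 to the other iWAT female wells (0.5 CPM added, at least 50 counts in P9), and, of each marker list, genes called between depots and the 2 most abundant. Other list genes named were chosen after their values were seen. The members, lists and this rule were chosen with earlier results of these data known, so no count over them is independent evidence. Some genes that this rule picks are not reported here.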

Additional observations from a re-analysis of the deposited data

Results flagged for a closer look

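A sample far from the others of its group was found in 19 of the 30 combinations of gene and group that could be tested. Of these, 9 are values of P9, on which the genes were selected, so they are a description and are not set against chance. For the others a nominal chance rate is about 1 in 20, but it does not hold where only 1 well of a group held a count. Such a well is apart by construction, as for Krt8 in B9, Cdh1 in H9, Krt5 in G10, Epcam in B10 and Cldn3 in J9. Many of these genes also move together, so the findings are not separate, and nothing is read from their number. Well P9 was far above the other iWAT female wells for 9 of the 10 genes, every one but Epcam, with 244 CPM of Krt7, 740 CPM of Krt8, 607 CPM of Krt18, 98.7 CPM of Krt19, 131 CPM of Krt5, 291 CPM of Krt14, 39.5 CPM of Cldn3, 466 CPM of Cldn4 and 54.3 CPM of Cdh1.

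Well G10, labelled pgWAT female, was far above the others of its group for Krt18 at 62.9 CPM, Krt5 at 2.17 CPM, Krt14 at 36.9 CPM and Cdh1 at 13.0 CPM. Well B10 was far above them for Epcam at 5.00 CPM. Among wells labelled pgWAT male, C9 was apart for Krt19 at 13.8 CPM and J9 for Cldn3 at 2.14 CPM. Among iWAT male wells B9 was apart for Krt8 at 2.16 CPM, and H9 for Krt18 at 6.23 CPM and Cdh1 at 2.08 CPM. The values of Krt8 in B9, Cdh1 in H9 and Krt5 in G10 are 1 count each, and those of Epcam in B10 and Cldn3 in J9 are 2 counts each.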

How the results depend on the processing

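The call of Krt19 as lower in pgWAT with both labelled sexes held in every alternative run. The count of members called higher there was 1 in the fit reported. It was 0 with limma-voom, without the libraries whose sex-linked transcripts did not match and without the pgWAT wells of column 10, 2 with DESeq2 and without a filter on low counts, and 3 with well column as a factor and without P9. It was 0 to 3 when single libraries were left out. For labelled female wells the 1 member called lower became 0 with DESeq2 and without P9, and with limma-voom it was Cldn4 in place of Krt8. It became 2 with total counts alone, with well column as a factor, without mismatched libraries, without the pgWAT wells of column 10 and within column 8, and 5 without a filter, and it was 0 to 3 when single libraries were left out. With well column as a factor, within column 8 and without either set of pgWAT wells, the 2 were Krt14 and Cldn4. For labelled male wells the 3 members called higher became 0 with limma-voom and without mismatched libraries and 2 without the pgWAT wells of column 10, and were 0 to 3 when single libraries were left out. The count called lower rose from 0 to 1, Krt19, with total counts, no filter, DESeq2, well column as a factor, without P9 and within column 9, and was 0 to 1 when single libraries were left out. Between labelled sexes of pgWAT 0 members were called, 2 without a filter (Krt8 and Cldn4) and 4 with well column as a factor. Over all genes, those called higher in pgWAT fell from 1783 to 1159 without mismatched libraries, where fewer samples entered. The cause of the other changes was not tested. No paired analysis was possible because the labels give no replicate number, and those used here only follow the order of accession.

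Depth limits Krt5, Cldn3, Epcam and Cdh1, which did not pass the filter, and every value at 0 to 3 counts. The contrasts rest on wells of unknown shared origin, and pgWAT sex labels that 4 wells contradict.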
